A study of Caenorhabditis elegans with 9 samples.

Results

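The 33 genes described here encode the DNA replication machinery of Caenorhabditis elegans. They were chosen by gene symbol from the known sub-complexes of the replication fork, with earlier results of these data known. All 33 were found among the 46245 genes of the deposited expression table. They comprise 7 genes of origin recognition and licensing (orc-1 to orc-5, cdc-6 and cdt-1), the 6 subunits of the MCM helicase (mcm-2 to mcm-7) and the 4 subunits of the GINS complex (psf-1, psf-2, psf-3 and sld-5). Synthesis and its supports are represented by 3 genes of polymerase alpha-primase (div-1, pri-1 and pri-2), pole-1 and pole-2 of polymerase epsilon, rpa-1 and rpa-2 of replication protein A (RPA), the sliding clamp gene pcn-1, the clamp loader genes rfc-1 to rfc-4, crn-1 and lig-1 for joining Okazaki fragments, and the ribonucleotide reductase genes rnr-1 and rnr-2.

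Replication starts where the origin recognition complex binds DNA and, with CDC-6 and CDT-1, loads the MCM ring in an inactive form. In S phase the ring is activated by CDC-45 and GINS, DNA is unwound, RPA coats the single strands, primase lays down primers and the polymerases extend them on the PCNA clamp. In the adult hermaphrodite gonad, germ cells at the distal end divide by mitosis, pass through a last S phase and enter meiosis, and growing oocytes take up transcripts and proteins that the early embryo will use for its rapid divisions. Transcripts of replication genes in an extruded germ line can therefore come from dividing germ cells, from meiotic cells and from oocytes.

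Worms grown on E. coli OP50 to adulthood were moved to RNAi bacteria and to 15°C or 20°C, and germ lines were extruded by decapitation on day 6 of adulthood. The 3 groups were worms on empty vector (EV) bacteria at 15°C, worms on EV bacteria at 20°C and worms on iff-1 RNAi bacteria at 15°C, with 3 libraries each. RNAi feeding in all groups began only at adulthood, and the labels do not say whether it acted in the germ line alone. The labels used here name no strain and do not give the number of animals per library or say whether replicates were separate cultures. Each p-value here therefore reflects only how much these libraries vary, and that variation may be technical. Poly-A RNA was sequenced with a stranded kit, and each value is in FPKM, fragments per kilobase of transcript scaled to the mapped fragments of the library, which gives a gene's level relative to all other transcripts of its library and corrected for length.

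The RNAi target was read first. The iff-1 gene, whose product belongs to the eIF5A family of translation factors (WBGene00002064, chromosome III, 9745862 to 9747193 in the WBcel235 annotation, minus strand), was at 2677, 2653 and 2510.0 FPKM in EV 15°C replicates 1 to 3 and at 2665, 2442 and 2479 FPKM in those of EV 20°C. Under iff-1 RNAi it was at 104, 58.0 and 37.4 FPKM. The libraries labelled as iff-1 RNAi were all far below the others, with a mean 97.5% below that of EV 15°C (log2 fold change -5.40, SE 0.289, adjusted p = 5.47e-05). Permuting the 3 and 3 libraries exactly, two-sided, gave p = 0.1, which is the smallest value this design can reach.

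The libraries were deep and similar in depth. The steps between low FPKM values put the depth at an estimated 41.0 to 47.4 × 1e6 fragments per library. At that depth counting error is 0.548% to 2.41% of the value for 32 of the 33 genes and 7.79% for psf-2, whose lowest value corresponds to an estimated 139 fragments. Germ line markers (pgl-1, glh-1, gld-1, glp-1, nos-2 and mex-5) were present in every library, with a sum of 2495 to 2622 FPKM. Single markers differed between groups in opposite directions, as given below. Intestine markers summed to 72.9 to 339 FPKM over the 9 libraries, with 1 library well above the others of its group each time: EV 15°C replicate 3 at 328 FPKM, EV 20°C replicate 2 at 170.4 FPKM and iff-1 RNAi replicate 1 at 339 FPKM. The sperm genes msp-3, msp-10, msp-142 and spe-11 were listed at 0 in all 9.

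All 33 replication genes passed the filter of a mean of 1 FPKM, in each group by a wide margin, since the lowest single value was 7.74 FPKM. The most abundant transcript was that of pcn-1, the PCNA clamp, with 900.1 ± 19.9 FPKM in EV 15°C (SD, n = 3), and it ranked above 98.3% of the 8572 genes that were tested. The small ribonucleotide reductase subunit rnr-2 followed with 602 ± 5.29 FPKM, then the RPA subunit rpa-2 with 366 ± 7.19 FPKM and the large reductase subunit rnr-1 with 324 ± 7.19 FPKM. The 6 MCM genes formed a tight band, with group means of 168 FPKM for mcm-3 to 272 FPKM for mcm-7 in EV 15°C, a ratio of 1.61. At the lower end were cdt-1, sld-5, pole-1 and pole-2, with EV 15°C means of 36.6 to 47.3 FPKM, and psf-2 with 8.55 ± 0.514 FPKM. The order of the neighbours rpa-1 and rfc-4 (246 ± 6.16 and 238 ± 2.74 FPKM in EV 15°C) was reversed in the other groups, and in EV 15°C they differed by little more than their spread.

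**Figure D1:**
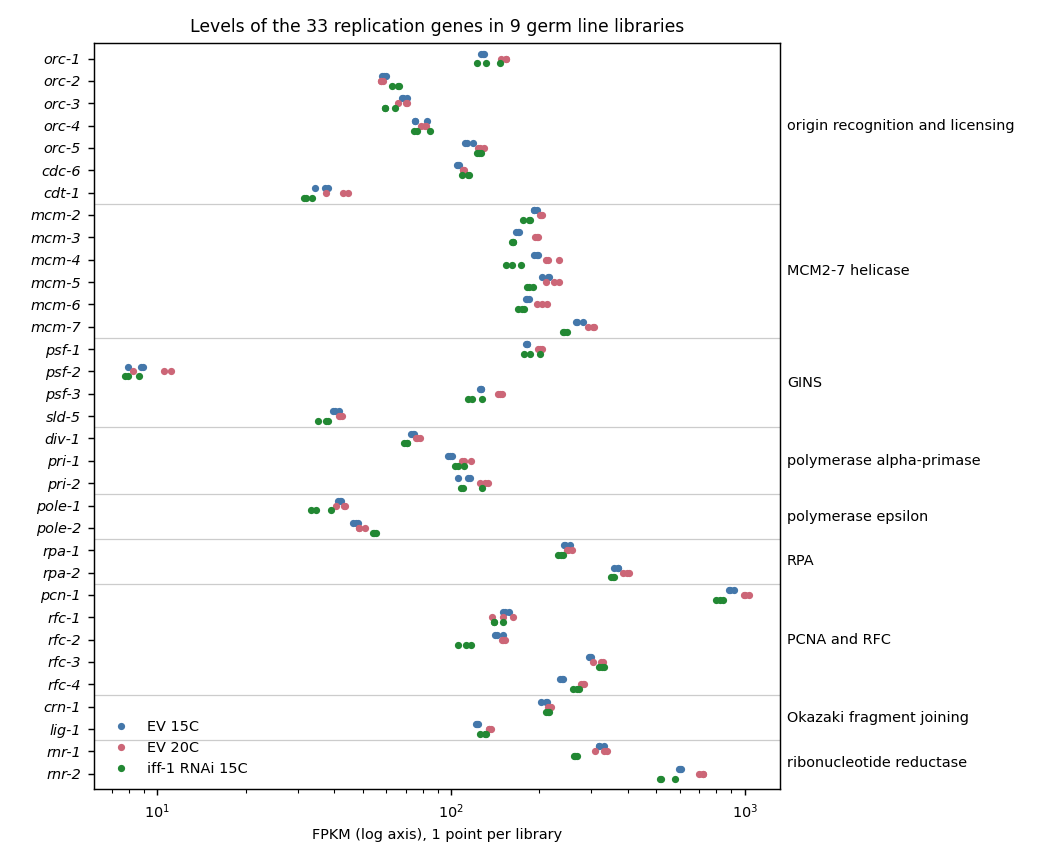
Level of each of the 33 replication genes in FPKM on a log axis, with 1 point per library and genes grouped by sub-complex. The genes span from psf-2, at 7.74 FPKM in its lowest library, to pcn-1, at 1033 FPKM in its highest, while the 3 groups lie close together for every gene.

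Subunits that act in a fixed complex were not all at the same level. In GINS, psf-1 was at 181 ± 1.08 FPKM and psf-3 at 126 ± 0.590 FPKM in EV 15°C, while sld-5 was at 40.5 ± 0.991 FPKM, and the ratio of psf-1 to psf-2 was 21.2 ± 1.33. psf-2 is the only 1 of the 33 with more than a few percent of its exons under a gene on the other strand (65 nt, or 10.6%, shared with F31C3.6, mean 24.0 FPKM), and the strand setting of the authors' counting is not given in the sources used here, so its level is uncertain. For the other 12 genes with such an overlap, the shared part was at most 2.72% of the exons. Replicates of the replication genes differed little, with a median coefficient of variation of 1.97% in EV 15°C, 2.16% in EV 20°C and 2.92% under iff-1 RNAi, against 4.49%, 6.43% and 5.57% for all tested genes. The most variable were psf-2 in EV 20°C (15.1%) and orc-1 under iff-1 RNAi (9.50%).

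The first comparison asked what a higher temperature in adulthood does to the germ line. At 20°C, 15 of the 33 replication genes were higher than at 15°C and 0 were lower, with rises of 0.11 to 0.25 on the log2(FPKM + 1) scale. The risers came from every sub-complex listed here except polymerase epsilon: orc-1 and orc-5 of the origin recognition complex, mcm-3, mcm-4, mcm-6 and mcm-7 of the helicase, psf-1 and psf-3 of GINS, both primase subunits, rpa-2, pcn-1, rfc-4, lig-1 and rnr-2. Neither polymerase epsilon gene was called. The polymerase genes pola-1, pold-1 and pold-2, which are not among the 33, were not called either. Among all 8572 tested genes 28.0% were called, 19.3% higher and 8.69% lower, called meaning an adjusted p under 0.05 in limma with Benjamini-Hochberg adjustment over all tested genes. In the same test without adjustment, 18 replication genes had p under 0.05 and were higher, and 0 were lower. No share of all tested genes was taken at that looser threshold, so this count has no background. The median log2 fold change of the 33 was 0.11, against 0.03 over all tested genes. Of the 33, 30 were positive, against 56.6% of all tested genes. The 3 libraries of EV 20°C all lay above the 3 of EV 15°C for 21 of the 33 genes, which happened for 29.3% of all tested genes, and all lay below for 0 of the 33, against 16.2% of all tested genes.

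The count of risers depended on how libraries were scaled to each other. It was 9 with median ratio scaling, under which 1172 of all tested genes were higher and 1118 lower in place of 1656 and 745, and 10 with quantile normalization, under which the split was 1261 and 1021. Scaling without the 10 highest genes gave 16, with 1807 of all tested genes higher and 512 lower. The calls of orc-5, mcm-4, mcm-7, psf-1 and pri-2 were lost with both of the first 2 scalings and that of rpa-2 with median ratio scaling, while those of mcm-4, psf-1 and pri-2 were also lost with no filter on low values and with no variance trend. Leaving out 1 library at a time gave 10 to 15 risers and no gene that was lower, where 12.7% to 20.2% of all tested genes were higher. The lowest count was without EV 15°C replicate 2, where 12.7% of all tested genes were higher and 4.93% lower.

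The second comparison asked what loss of iff-1 at 15°C does. Under iff-1 RNAi 6 of the 33 replication genes were higher than in EV 15°C (orc-2, orc-5, cdc-6, pole-2, rfc-3 and rfc-4) and 11 were lower (orc-3, mcm-2, mcm-4, mcm-5, mcm-7, sld-5, pole-1, pcn-1, rfc-2, rnr-1 and rnr-2). The largest fall was that of rfc-2, -0.37 on the log2 scale, and the largest rise that of pole-2, 0.21. Members of the same complex moved in opposite directions: pole-1 fell and pole-2 rose, rfc-2 fell while rfc-3 and rfc-4 rose, and orc-3 fell while orc-2 and orc-5 rose. Among all tested genes 31.0% were called, 16.0% higher and 15.0% lower. The median log2 fold change of the 33 was -0.06, against 0.01 over all tested genes. The groups did not overlap for 8 of the 33 genes in the higher direction and 16 in the lower, against 26.1% and 23.6% of all tested genes.

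These counts depended on single libraries. Without EV 15°C replicate 1 there were 5 higher and 6 lower, where 11.9% and 10.3% of all tested genes were. Without EV 15°C replicate 2 there were 3 and 7 (11.1% and 10.4% of all tested genes). Without EV 15°C replicate 3 there were 3 and 6 (11.3% and 11.5%). Without iff-1 RNAi replicate 1 there were 3 and 6 (10.7% and 10.2%), and without iff-1 RNAi replicate 2 there were 7 and 7 (12.7% and 10.3%). These shares of all tested genes were below the 16.0% and 15.0% found with all libraries. With libraries scaled without their 10 highest genes, 3 were higher and 9 lower, where 11.5% and 14.3% of all tested genes were. The calls of orc-2, orc-5, cdc-6, mcm-2 and sld-5 were lost. Quantile normalization ended the calls of mcm-2, sld-5 and rnr-2, and median ratio scaling that of mcm-2.

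**Figure D2:**
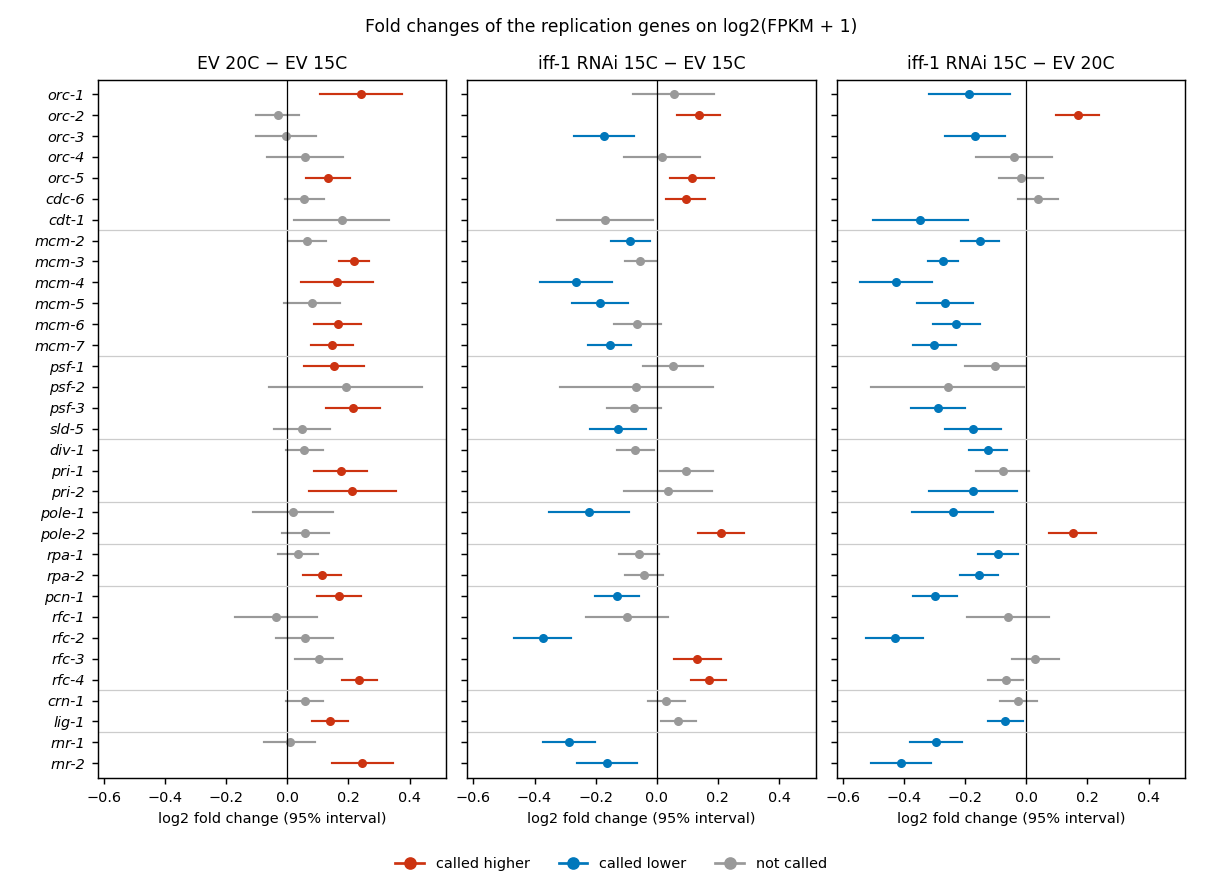
Log2 fold change of each replication gene on log2(FPKM + 1) with its 95% interval from limma, for EV 20°C against EV 15°C, iff-1 RNAi 15°C against EV 15°C and iff-1 RNAi 15°C against EV 20°C, coloured by whether the gene was called at an adjusted p under 0.05. Called genes number 15 higher and 0 lower in the first panel, 6 and 11 in the second and 2 and 21 in the third, and each pair of panels shares a group of libraries.

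Origin recognition and licensing genes went in several directions. ORC-1, an ATPase subunit of the complex, is encoded by orc-1 (WBGene00012650, chromosome III, 10643129 to 10646058, plus strand), which was at 126, 129 and 129.7 FPKM in EV 15°C, at 153, 154 and 148 FPKM in EV 20°C and at 122, 131 and 147 FPKM under iff-1 RNAi. All EV 20°C libraries were above those of EV 15°C, and the iff-1 RNAi libraries spread from below EV 15°C to just under EV 20°C. Its log2 fold change at 20°C was 0.24 (SE 0.059, adjusted p = 0.0173), and the call was lost without EV 15°C replicate 1 or 2 (adjusted p = 0.0603 and 0.0509). The gene next to it, orc-4, which lies 111 nt downstream on the same strand and encodes another ATPase subunit, was at 77.8 ± 4.08, 81.0 ± 1.68 and 78.8 ± 5.45 FPKM in the 3 groups and was not called in any comparison. The difference of orc-4 at 20°C had a 95% interval of -0.07 to 0.18 on the log2 scale.

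The orc-5 transcript rose in both comparisons against EV 15°C. Its values were 119, 112 and 113 FPKM in EV 15°C, 129, 126 and 123 FPKM in EV 20°C and 126, 123 and 124 FPKM under iff-1 RNAi, so that both other groups lay above EV 15°C. The log2 fold change was 0.13 at 20°C (SE 0.031, adjusted p = 0.0150) and 0.12 under iff-1 RNAi (SE 0.031, adjusted p = 0.0241). The first call was lost without EV 15°C replicate 2 (adjusted p = 0.0565), and the second without EV 15°C replicate 2 or 3 or iff-1 RNAi replicate 1 (adjusted p 0.0756 to 0.0840). orc-2 (WBGene00003882, chromosome II, 10873931 to 10877683, plus strand) rose under iff-1 RNAi, from 60.2, 59.1 and 58.2 FPKM to 63.1, 66.2 and 66.1 FPKM (log2 fold change 0.14, SE 0.031, adjusted p = 0.0117), and this call was kept with any 1 library left out but lost when libraries were scaled without their 10 highest genes (adjusted p = 0.0553). At 20°C orc-2 was at 58.5, 57.6 and 57.5 FPKM and was not called.

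By contrast, orc-3 fell under iff-1 RNAi. It was at 68.5, 68.3 and 70.8 FPKM in EV 15°C, at 66.0, 70.8 and 70.0 FPKM in EV 20°C and at 59.6, 59.5 and 64.7 FPKM under iff-1 RNAi, where all 3 libraries were below every EV library. The log2 fold change against EV 15°C was -0.17 (SE 0.043, adjusted p = 0.0160), and the call was lost without EV 15°C replicate 3, iff-1 RNAi replicate 1 or iff-1 RNAi replicate 2 (adjusted p 0.0578 to 0.0594).

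The licensing factors cdc-6 and cdt-1, which together bring the MCM ring to the origin complex, differed in their values. cdc-6 was at 106 ± 1.08 FPKM in EV 15°C, 109.8 ± 0.446 FPKM in EV 20°C and 113 ± 3.50 FPKM under iff-1 RNAi. It was called higher under iff-1 RNAi (log2 fold change 0.09, SE 0.028, adjusted p = 0.0339), a call lost without any 1 of the EV 15°C libraries, EV 20°C replicate 3 or iff-1 RNAi replicate 1 or 3 (adjusted p 0.0543 to 0.101). cdt-1 was at 34.5, 37.2 and 38.2 FPKM in EV 15°C, at 37.4, 44.6 and 42.9 FPKM in EV 20°C and at 32.1, 31.7 and 33.5 FPKM under iff-1 RNAi. Every iff-1 RNAi library was below every EV library, and EV 20°C replicate 1 lay within the EV 15°C range. Neither comparison of cdt-1 against EV 15°C passed the test (log2 fold changes 0.18 and -0.17, SE 0.068, adjusted p = 0.0838 and 0.0929), and both passed without EV 20°C replicate 1 (adjusted p = 0.0128 and 0.0278).

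All 6 MCM helicase genes had a positive fold change at 20°C and a negative one under iff-1 RNAi against EV 15°C. Their summed level was 1210 to 1235 FPKM in the EV 15°C libraries, 1343 to 1348 FPKM in EV 20°C and 1107 to 1113 FPKM under iff-1 RNAi, so that the 3 groups did not overlap. At 20°C 4 of 6 were called higher, against 19.3% of all tested genes. Under iff-1 RNAi 4 of 6 were called lower than in EV 15°C, against 15.0% of all tested genes.

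mcm-3 (WBGene00003155, chromosome V, 15056719 to 15059599, minus strand) was at 166, 169.7 and 169 FPKM in EV 15°C, at 194, 197 and 197 FPKM in EV 20°C and at 162, 162 and 162 FPKM under iff-1 RNAi. The rise at 20°C was many times the spread within any group, with a log2 fold change of 0.22 (SE 0.022, adjusted p = 0.000739) that was kept with any 1 library left out. Under iff-1 RNAi the log2 fold change was -0.05 (SE 0.022, adjusted p = 0.0938), not called. mcm-6 was similar, with 182 ± 2.13, 204 ± 8.27 and 174 ± 4.04 FPKM in the 3 groups, a log2 fold change of 0.16 at 20°C (SE 0.034, adjusted p = 0.00874) and -0.06 under iff-1 RNAi (SE 0.034, adjusted p = 0.178).

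mcm-4, on chromosome I, was the helicase gene that fell most under iff-1 RNAi. It was at 192, 197 and 197 FPKM in EV 15°C, at 233, 209.7 and 213 FPKM in EV 20°C and at 153, 173 and 161 FPKM under iff-1 RNAi. The 3 groups did not overlap, and EV 20°C replicate 1 was well above its group. Under iff-1 RNAi the log2 fold change was -0.26 (SE 0.052, adjusted p = 0.00616), called with any 1 library left out. The rise at 20°C was 0.16 (SE 0.052, adjusted p = 0.0467), and its call was lost without any 1 of the EV 15°C libraries, EV 20°C replicate 1 or 3 or iff-1 RNAi replicate 3 (adjusted p 0.0634 to 0.130).

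mcm-7 (WBGene00003159, chromosome V, 4347166 to 4349768, plus strand) passed the test in both comparisons. Its values were 268, 267 and 281 FPKM in EV 15°C, 292, 304 and 307 FPKM in EV 20°C and 248, 242 and 241 FPKM under iff-1 RNAi. The groups were fully separate, with log2 fold changes of 0.15 at 20°C (SE 0.031, adjusted p = 0.00985) and -0.15 under iff-1 RNAi (SE 0.031, adjusted p = 0.00652), both kept with any 1 library left out. The call at 20°C was lost with median ratio scaling and quantile normalization (adjusted p = 0.0588 and 0.0634). mcm-5 fell under iff-1 RNAi from 211 ± 5.50 to 185 ± 5.05 FPKM (log2 fold change -0.19, SE 0.040, adjusted p = 0.00938) and was at 223 ± 11.1 FPKM at 20°C, where it was called only without EV 20°C replicate 1 (adjusted p = 0.0394, and 0.171 with all libraries). mcm-2 fell under iff-1 RNAi from 193 ± 2.80 to 182 ± 5.32 FPKM (log2 fold change -0.09, SE 0.027, adjusted p = 0.0425), a call lost without any 1 of the EV 15°C libraries, EV 20°C replicate 3 or iff-1 RNAi replicate 1 or 3 (adjusted p 0.0651 to 0.127).

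**Figure D3:**
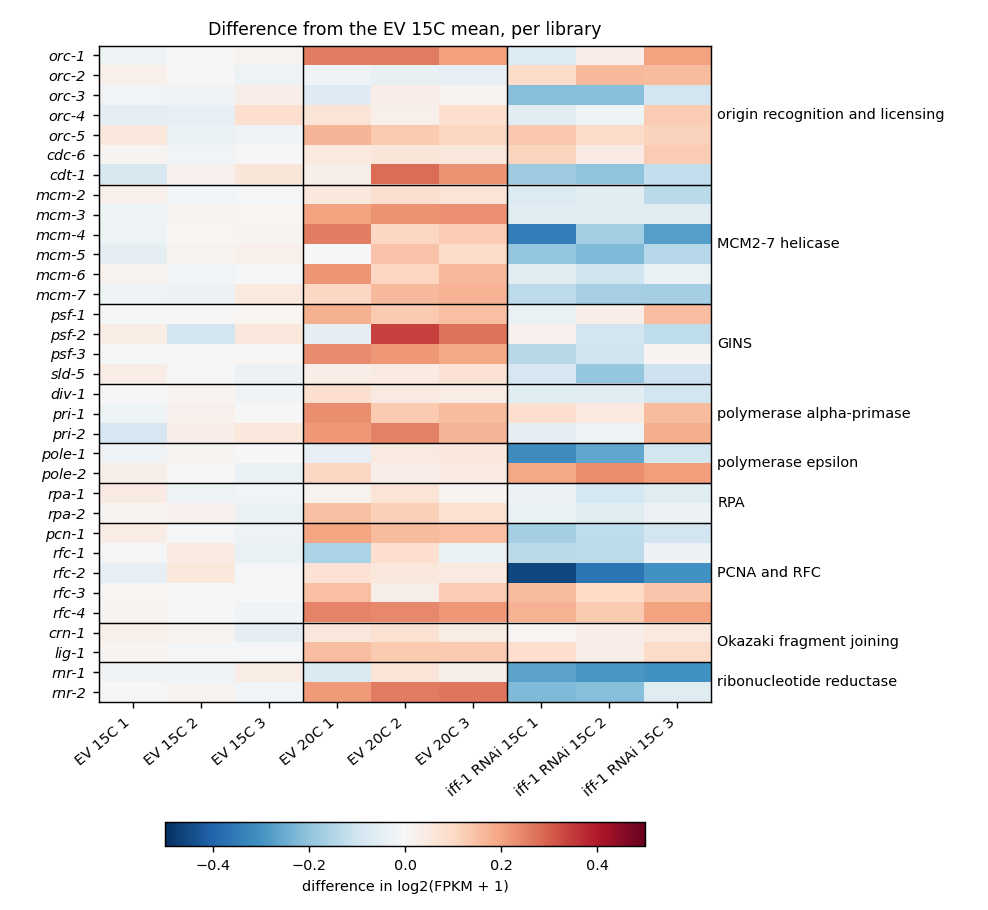
Difference of each library from the EV 15°C mean in log2(FPKM + 1), for the 33 replication genes in rows, grouped by sub-complex, and the 9 libraries in columns. Red (higher) fills most of the EV 20°C columns, while the iff-1 RNAi columns mix blue for the MCM genes, pcn-1, rfc-2 and the reductase genes with red for orc-2, pole-2, rfc-3 and rfc-4.

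GINS, which binds the MCM ring and CDC-45 to make the active helicase, had 2 risers of 4 at 20°C. Among all tested genes 19.3% were called higher there. psf-3, on chromosome I, was at 126, 126 and 127 FPKM in EV 15°C, at 149, 147 and 144 FPKM in EV 20°C and at 115, 118 and 128 FPKM under iff-1 RNAi. It rose at 20°C in every library (log2 fold change 0.21, SE 0.038, adjusted p = 0.00536), kept with any 1 library left out, while iff-1 RNAi replicate 3 lay above EV 15°C and the other 2 below it (log2 fold change -0.07, adjusted p = 0.172, and called lower without replicate 3, adjusted p = 0.0126). psf-1 rose at 20°C from 181 ± 1.08 to 201 ± 3.29 FPKM (log2 fold change 0.15, SE 0.043, adjusted p = 0.0298), a call lost without any 1 of the 6 EV libraries (adjusted p 0.0501 to 0.0863). sld-5 was called lower under iff-1 RNAi, from 40.5 ± 0.991 to 37.0 ± 1.51 FPKM (log2 fold change -0.13, SE 0.040, adjusted p = 0.0433). That call was lost without any 1 of the EV 15°C libraries, EV 20°C replicate 2 or 3 or iff-1 RNAi replicate 2 or 3 (adjusted p 0.0546 to 0.134). psf-2 was not called in either comparison with EV 15°C, and was called higher at 20°C without EV 20°C replicate 1 (adjusted p = 0.0280, and 0.221 with all libraries).

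Both primase subunits were higher at 20°C. pri-1, the catalytic subunit that makes RNA primers (WBGene00004180, chromosome III, 9612254 to 9614281, minus strand), was at 98.0, 100.8 and 99.4 FPKM in EV 15°C, at 117, 109 and 111 FPKM in EV 20°C and at 106, 103 and 111 FPKM under iff-1 RNAi. All other libraries lay above those of EV 15°C, and the rise passed the test at 20°C (log2 fold change 0.17, SE 0.038, adjusted p = 0.0111) but not under iff-1 RNAi (0.10, SE 0.038, adjusted p = 0.0849). pri-2, the large primase subunit, rose at 20°C from 112 ± 5.71 to 129.7 ± 3.67 FPKM (log2 fold change 0.21, SE 0.063, adjusted p = 0.0361), and this call was lost without any 1 of the 6 EV libraries (adjusted p 0.0527 to 0.119). div-1, the accessory B subunit of polymerase alpha, was at 74.0 ± 0.828, 76.9 ± 1.32 and 70.4 ± 0.908 FPKM in the 3 groups and was not called against EV 15°C (adjusted p = 0.152 and 0.0789).

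The polymerase epsilon genes parted under iff-1 RNAi. pole-1 encodes the catalytic subunit, on chromosome I, and was at 41.3, 42.2 and 41.8 FPKM in EV 15°C, at 40.6, 43.1 and 43.4 FPKM in EV 20°C and at 33.5, 34.8 and 39.1 FPKM under iff-1 RNAi. pole-2 encodes the second subunit (WBGene00017237, chromosome IV, 8682240 to 8686610, minus strand) and was at 48.3, 47.4 and 46.3 FPKM, at 50.9, 48.5 and 48.7 FPKM and at 54.2, 55.7 and 54.8 FPKM in the same groups. Every iff-1 RNAi library was below all EV libraries for pole-1 and above all of them for pole-2. The log2 fold change against EV 15°C was -0.22 for pole-1 (SE 0.058, adjusted p = 0.0202) and 0.21 for pole-2 (SE 0.034, adjusted p = 0.00264). The pole-2 call was kept with any 1 library left out, and that of pole-1 was lost without any 1 of the EV 15°C libraries or iff-1 RNAi replicate 1 or 2 (adjusted p 0.0518 to 0.0700). At 20°C the log2 fold changes were 0.02 and 0.06, with 95% intervals of -0.11 to 0.15 and -0.02 to 0.14.

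RPA protects single-stranded DNA at the fork. rpa-2, the middle subunit, was at 369, 371 and 358 FPKM in EV 15°C, at 404, 398 and 386 FPKM in EV 20°C and at 357, 350.5 and 359 FPKM under iff-1 RNAi. It rose at 20°C (log2 fold change 0.11, SE 0.027, adjusted p = 0.0165), a call lost without EV 15°C replicate 3 (adjusted p = 0.0536). rpa-1, the large subunit, was at 246 ± 6.16, 252 ± 5.45 and 236 ± 4.70 FPKM, not called in either comparison against EV 15°C (adjusted p = 0.405 and 0.156).

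pcn-1 encodes PCNA, the ring that holds polymerases on DNA (WBGene00003955, chromosome IV, 4047937 to 4049448, minus strand). It was at 922, 894 and 884 FPKM in EV 15°C, at 1033, 1005 and 998 FPKM in EV 20°C and at 800.3, 825 and 843 FPKM under iff-1 RNAi. The groups did not overlap, with EV 20°C highest and iff-1 RNAi lowest. The log2 fold change was 0.17 at 20°C (SE 0.031, adjusted p = 0.00624), kept with any 1 library left out, and -0.13 under iff-1 RNAi (SE 0.031, adjusted p = 0.0149), lost without EV 15°C replicate 1 or iff-1 RNAi replicate 1 (adjusted p = 0.0579 and 0.0540).

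The clamp loader, which opens PCNA and closes it around primed DNA, had the gene that fell most of the 33. rfc-2, a small subunit (WBGene00004338, chromosome IV, 1347314 to 1352977, plus strand), was at 141, 150.1 and 144 FPKM in EV 15°C, at 152, 150.3 and 149 FPKM in EV 20°C and at 105, 112 and 117 FPKM under iff-1 RNAi. The iff-1 RNAi libraries lay far below all EV libraries, which overlapped each other. The log2 fold change under iff-1 RNAi was -0.37 (SE 0.041, adjusted p = 0.000592), and at 20°C it was 0.06 with a 95% interval of -0.04 to 0.15.

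rfc-4, another small subunit (WBGene00004340, chromosome III, 6972253 to 6973717, plus strand), was at 240.2, 238 and 234.7 FPKM in EV 15°C, at 283, 281 and 277 FPKM in EV 20°C and at 268, 261 and 273 FPKM under iff-1 RNAi. It rose in both comparisons against EV 15°C, by 0.24 at 20°C (SE 0.025, adjusted p = 0.000838) and by 0.17 under iff-1 RNAi (SE 0.025, adjusted p = 0.00194) on the log2 scale. Like the rfc-2 fall, both calls were kept with any 1 library left out. rfc-3, also a small subunit, rose under iff-1 RNAi from 297 ± 2.01 to 326 ± 6.86 FPKM (log2 fold change 0.13, SE 0.034, adjusted p = 0.0192), a call lost without EV 15°C replicate 2 or 3 or iff-1 RNAi replicate 1 (adjusted p 0.0548 to 0.0670). At 20°C rfc-3 was at 319.5 ± 13.9 FPKM (adjusted p = 0.0520) and was called higher without EV 20°C replicate 2 (adjusted p = 0.0123). rfc-1, the large subunit, was at 153 ± 3.99, 149.9 ± 12.6 and 143.4 ± 6.04 FPKM and was not called in any comparison.

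Of the genes that finish lagging-strand fragments, lig-1 rose at 20°C and crn-1 was not called. lig-1, the homologue of DNA ligase I (WBGene00002985, chromosome V, 10814106 to 10816718, plus strand), was at 124, 122 and 122 FPKM in EV 15°C, at 137, 134 and 135 FPKM in EV 20°C and at 130.1, 125 and 131 FPKM under iff-1 RNAi. Both other groups lay above EV 15°C, with log2 fold changes of 0.14 at 20°C (SE 0.025, adjusted p = 0.00556) and 0.07 under iff-1 RNAi (SE 0.025, adjusted p = 0.0655, and 0.0397 without iff-1 RNAi replicate 2). crn-1, the homologue of the flap endonuclease FEN1, was at 209 ± 5.48, 217 ± 2.94 and 213 ± 2.77 FPKM. Its 95% interval was -0.0038 to 0.12 at 20°C and -0.03 to 0.09 under iff-1 RNAi on the log2 scale.

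Ribonucleotide reductase makes the deoxyribonucleotides that replication consumes. rnr-2, the small subunit (WBGene00004392, chromosome III, 4093308 to 4094921, minus strand), was at 601, 607 and 597 FPKM in EV 15°C, at 697, 719.9 and 724 FPKM in EV 20°C and at 516, 519 and 577 FPKM under iff-1 RNAi. rnr-1, the large subunit (WBGene00004391, chromosome III, 9225339 to 9228798, minus strand), was at 319.8, 320.0 and 332 FPKM, at 308, 339 and 331 FPKM and at 269, 265 and 262 FPKM in the same groups. For rnr-2 the groups were fully separate, and for rnr-1 the iff-1 RNAi libraries were below all EV libraries, which overlapped.

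At 20°C rnr-2 rose by 0.25 on the log2 scale (SE 0.043, adjusted p = 0.00498), the largest rise of the 33, and rnr-1 was at 0.01 with a 95% interval of -0.08 to 0.09. Under iff-1 RNAi both fell, with log2 fold changes of -0.29 for rnr-1 (SE 0.037, adjusted p = 0.00108) and -0.16 for rnr-2 (SE 0.043, adjusted p = 0.0210). The rnr-2 call under iff-1 RNAi was lost without any 1 of the EV 15°C libraries or iff-1 RNAi replicate 1 or 2 (adjusted p 0.0508 to 0.0762), and the other calls of this pair were kept with any 1 library left out.

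**Figure D4:**
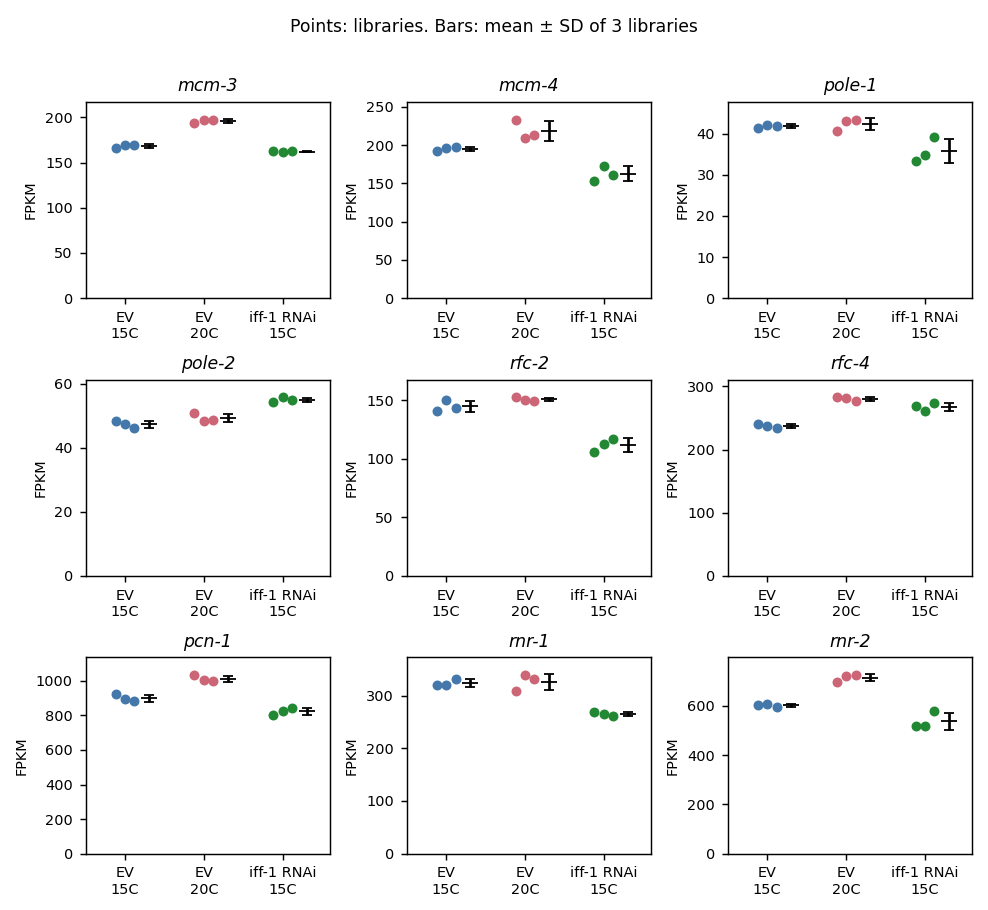
Level in FPKM of 9 replication genes in each library (points) with the mean and SD of the 3 libraries of a group (bars), on axes that start at 0. EV 20°C is highest for mcm-3, mcm-4, rfc-4, pcn-1 and rnr-2, while under iff-1 RNAi pole-1, rfc-2 and rnr-1 lie below and pole-2 above both EV groups.

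Ratios of partner genes within a library, which do not change when a library is multiplied by a scaling factor, show the same partings. The pairs were picked after the values were known, so they are given as a description with no test. The ratio of rnr-2 to rnr-1 was 1.88, 1.90 and 1.80 in EV 15°C, 2.26, 2.13 and 2.19 in EV 20°C and 1.92, 1.96 and 2.20 under iff-1 RNAi. Thus EV 20°C lay above EV 15°C in every library, and iff-1 RNAi replicate 3 reached the range of EV 20°C. The ratio of pole-2 to pole-1 was 1.17, 1.12 and 1.11 in EV 15°C, 1.25, 1.12 and 1.12 in EV 20°C and 1.62, 1.60 and 1.40 under iff-1 RNAi, with only the last group apart. The ratio of rfc-4 to rfc-2 was 1.64 ± 0.0611 in EV 15°C, 1.86 ± 0.00980 in EV 20°C and 2.40 ± 0.126 under iff-1 RNAi (SD, n = 3), and the 3 groups did not overlap. The ratio of orc-1 to its neighbour orc-4 was 1.65 ± 0.0696 in EV 15°C, 1.87 ± 0.0734 in EV 20°C and 1.69 ± 0.0530 under iff-1 RNAi.

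**Figure D5:**
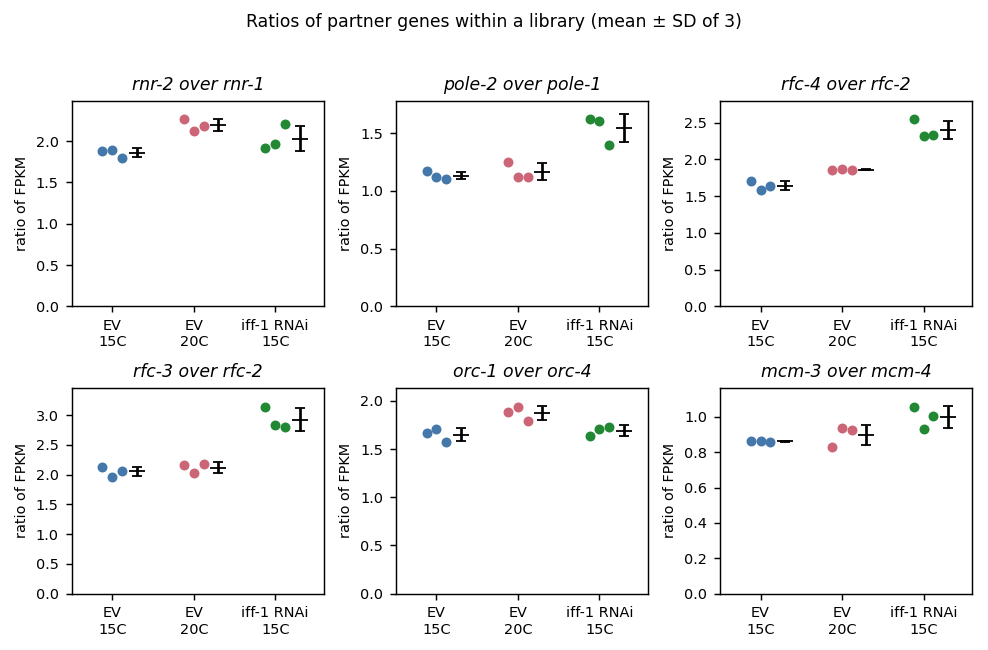
Ratio of the FPKM of 6 pairs of replication genes within each library (points), with the mean and SD of the 3 libraries of a group (bars), on axes that start at 0. The iff-1 RNAi libraries stand above both EV groups for pole-2 over pole-1, rfc-4 over rfc-2 and rfc-3 over rfc-2, and the EV 20°C libraries stand above EV 15°C for rnr-2 over rnr-1 and orc-1 over orc-4.

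The iff-1 RNAi libraries can also be set against EV 20°C, although these groups differ in both temperature and RNAi and share their libraries with the comparisons above. There 2 of the 33 genes were higher (orc-2 and pole-2) and 21 were lower, where 48.9% of all tested genes were called, 20.5% higher and 28.4% lower. The groups did not overlap for 2 of the 33 genes in the higher direction and 21 in the lower, against 25.4% and 31.1% of all tested genes. All 6 MCM genes were lower, by -0.15 for mcm-2 to -0.43 for mcm-4 on the log2 scale, as were pcn-1 (-0.30, SE 0.031, adjusted p = 0.000185), rnr-2 (-0.41, SE 0.043, adjusted p = 0.000185), rfc-2 (-0.43, SE 0.041, adjusted p = 0.000120) and cdt-1 (-0.35, SE 0.068, adjusted p = 0.00337). The median log2 fold change of the 33 was -0.17, against -0.02 over all tested genes. orc-4, orc-5, cdc-6, psf-1, psf-2, pri-1, rfc-1, rfc-3, rfc-4 and crn-1 were the 10 genes not called. Leaving out 1 library at a time gave 17 to 23 lower genes and 2 higher, where 23.3% to 28.7% of all tested genes were lower and 16.0% to 20.6% higher. The calls of orc-1, pri-2, rpa-1 and lig-1 were lost without at least 1 library. For orc-1 these were any 1 of the EV 20°C libraries or iff-1 RNAi replicate 1 or 2 (adjusted p 0.0502 to 0.0819), and for rpa-1 EV 20°C replicate 2 or iff-1 RNAi replicate 2 or 3 (adjusted p 0.0521 to 0.0853). For pri-2 they were any library other than EV 15°C replicate 1 or iff-1 RNAi replicate 3 (adjusted p 0.0571 to 0.153), and for lig-1 any other than iff-1 RNAi replicate 3 (adjusted p 0.0634 to 0.143). psf-2 was called lower without EV 20°C replicate 1 (adjusted p = 0.00755), and psf-1, pri-1 and rfc-4 without iff-1 RNAi replicate 3 (adjusted p = 0.00421, 0.0429 and 0.0306).

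Markers of germ line zones and of other cell types were counted in the same comparisons. Of the 6 germ line markers, 1 was higher (nos-2, 0.65 on the log2 scale) and 1 lower (glh-1, -0.36) at 20°C, where 19.3% and 8.69% of all tested genes were. Under iff-1 RNAi 2 were higher (gld-1, 0.21, and glp-1, 0.17) and 2 lower (glh-1, -0.41, and nos-2, -0.16) than in EV 15°C, against 16.0% and 15.0%. Of the 5 markers of the mitotic zone (glp-1, sygl-1, lst-1, fbf-2 and mex-3), 3 were higher at 20°C and 0 lower, where 19.3% of all tested genes were higher and 8.69% lower. Under iff-1 RNAi 1 of the 5 was higher and 3 were lower than in EV 15°C, against 16.0% and 15.0% of all tested genes. Their summed level was 943 to 1001 FPKM in EV 15°C, 1114 to 1213 FPKM in EV 20°C and 904 to 938 FPKM under iff-1 RNAi. The Notch targets sygl-1 and lst-1, which are transcribed in the distal stem cells, were at 262 ± 9.78 and 127 ± 5.12 FPKM in EV 15°C, at 345 ± 13.4 and 169 ± 6.85 FPKM in EV 20°C and at 229 ± 11.9 and 114 ± 6.05 FPKM under iff-1 RNAi. By contrast, glp-1 was at 96.4 ± 2.87, 96.8 ± 3.29 and 108 ± 1.16 FPKM. It was not called at 20°C (adjusted p = 0.920) and was called higher under iff-1 RNAi (adjusted p = 0.00702). mex-3, the largest part of the sum, was at 475 ± 15.9, 545 ± 30.1 and 462 ± 7.83 FPKM and was called only at 20°C. fbf-2 was at 13.9 ± 0.301, 14.6 ± 1.56 and 9.74 ± 1.17 FPKM and was called only under iff-1 RNAi. Of the 9 oocyte markers (oma-1, oma-2, puf-5, rme-2, cbd-1, pie-1, mei-1, cpg-1 and cpg-2), 8 were higher at 20°C, with sums of 8734 to 9351 FPKM in EV 15°C and 10039 to 10453 FPKM in EV 20°C, and 1 was lower under iff-1 RNAi, with sums of 8245 to 8752 FPKM. Of the 9 muscle and sheath markers 8 were tested, and 2 were lower in each comparison against EV 15°C, with sums of 134 to 170.1 FPKM in EV 15°C, 83.7 to 134.6 FPKM in EV 20°C and 98.5 to 126 FPKM under iff-1 RNAi. Of the 7 cuticle and hypodermis markers 4 were tested, and 2 were called lower at 20°C and 0 in either direction under iff-1 RNAi (limma, 0 also at an unadjusted p under 0.05), with sums of 13.1 to 22.9, 4.88 to 11.9 and 13.2 to 25.4 FPKM. Among the 8 sperm markers only fog-3, which promotes sperm fate in germ cells, passed the filter, and it was at 7.26, 6.36 and 4.31 FPKM in EV 15°C, at 2.55, 3.12 and 2.34 FPKM in EV 20°C and at 23.7, 18.2 and 14.9 FPKM under iff-1 RNAi. It was called lower at 20°C and higher under iff-1 RNAi (log2 fold changes -0.91 and 1.52, SE 0.202, adjusted p = 0.0122 and 0.00122). None of the 9 tested intestine markers was called against EV 15°C (limma, 0 of 9 also at an unadjusted p under 0.05). Their median log2 fold changes were -0.65 at 20°C and 0.31 under iff-1 RNAi. All 13 listed summed to 182 ± 126, 110 ± 52.9 and 212 ± 111 FPKM (SD, n = 3). With that spread, the lack of a call does not show that the groups were equal. Under iff-1 RNAi against EV 20°C 20.5% of all tested genes were higher and 28.4% lower. There all 9 oocyte markers were lower, and of the 5 mitotic zone markers 1 was higher and 4 were lower. The germ line markers gave 2 higher and 2 lower. Of the tested markers, 2 of 9 for intestine and 3 of 4 for cuticle and hypodermis were higher and 0 lower. For muscle and sheath 0 of 8 were called, and fog-3 was higher. The part that these cells and zones have in the values of the replication genes was not tested, and in bulk RNA fewer cells of a type and less RNA per cell cannot be told apart. Leaving out EV 15°C replicate 3, EV 20°C replicate 2 and iff-1 RNAi replicate 1, the libraries with the highest intestine marker sum of each group, left 2 libraries per group. It gave 6 replication genes higher and 0 lower at 20°C, where 7.93% of all tested genes were higher and 5.03% lower, and 2 higher and 2 lower under iff-1 RNAi against EV 15°C, where the shares of all tested genes were 4.85% and 5.96%. Against EV 20°C it gave 2 higher and 14 lower, where 15.0% of all tested genes were higher and 19.7% lower. Without the first 2 of these libraries only, the counts were 10 and 0, 3 and 6, and 2 and 16. The shares of all tested genes were then 10.1% and 5.77%, 11.3% and 11.3%, and 19.9% and 24.4%.

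Other genes of the replication pathway, listed with earlier results of these data known, were also counted. Of 27 such genes, 9 were higher and 1 lower at 20°C, where 19.3% of all tested genes were higher and 8.69% lower. Under iff-1 RNAi 5 of the 27 were higher and 7 lower than in EV 15°C, against 16.0% and 15.0% of all tested genes. Their median log2 fold change was 0.09 at 20°C and 0.00 under iff-1 RNAi. The 1 gene called lower at 20°C was top-2, which was named after its values were seen. It was lower in both comparisons, by -0.15 at 20°C and -0.17 under iff-1 RNAi (limma, adjusted p = 0.00844 and 0.00338). For pola-1 the log2 fold changes were -0.10 and -0.19, called lower only under iff-1 RNAi (limma, adjusted p = 0.127 and 0.0160). Neither pold-1 nor pold-2 was called in these comparisons. dut-1, which encodes the dUTPase that keeps uracil out of DNA, was at 377, 379.6 and 381 FPKM in EV 15°C, at 463, 465 and 472 FPKM in EV 20°C and at 315, 306 and 336 FPKM under iff-1 RNAi, without overlap. The log2 fold change of dut-1 was 0.30 at 20°C (SE 0.034, adjusted p = 0.000969) and -0.25 under iff-1 RNAi (SE 0.034, adjusted p = 0.00128). Thymidylate synthase, tyms-1, was at 173 ± 2.69, 192 ± 4.16 and 151 ± 3.91 FPKM and was called in both comparisons (adjusted p = 0.00702 and 0.00178). Another gene of nucleotide supply, dhfr-1, which encodes dihydrofolate reductase and was chosen after its values were seen, was at 141 ± 0.863, 151 ± 2.39 and 145 ± 6.50 FPKM and was not called in either comparison (adjusted p = 0.0685 and 0.459).

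cdc-7, which encodes a kinase that activates the loaded MCM ring, was at 85.8 ± 2.35, 100.5 ± 1.06 and 100.6 ± 1.48 FPKM and was higher in both comparisons (log2 fold change 0.23 in each, SE 0.028, adjusted p = 0.00140 and 0.000989). unc-85, a homologue of the histone chaperone Asf1, was at 236 ± 6.10, 270.5 ± 5.73 and 184 ± 9.37 FPKM, higher at 20°C and lower under iff-1 RNAi (adjusted p = 0.00775 and 0.000606). gmn-1, which encodes geminin, the inhibitor of CDT-1, was at 296 ± 4.86, 325 ± 3.92 and 292 ± 3.84 FPKM, higher at 20°C (log2 fold change 0.13, SE 0.024, adjusted p = 0.00537) and not called under iff-1 RNAi (adjusted p = 0.521).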

How the data were processed

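The members and lists were chosen with earlier results of these data known. The authors deposited 1 table of FPKM values per gene and library. CASAVA and Cufflinks are named, without version or role, in the submitters' processing notes, and the aligner, genome build, annotation and strand setting are items not given in the sources used here. Genes were matched by WormBase ID to symbols (43227 of 46245 IDs) and to the WBcel235 annotation (45990 IDs), from which the coordinates come, and the authors' build may differ. Read counts were not used. Depth was estimated from the spacing of low values (0.3 FPKM or less, transcripts of at least 1000 nt), of which 78.4% to 81.9% were no more than 0.25 of a step from a whole multiple, against 50% by chance, too few to recover counts.

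A linear model (limma 3.58.1, R 4.3.3) was fitted to log2(FPKM + 1) of the 8572 genes whose mean reached 1 FPKM, all 9 libraries in 1 fit with 6 residual degrees of freedom and a variance trend, two-sided, with Benjamini-Hochberg adjustment over all tested genes, called at an adjusted p under 0.05. Because 1 is added before the logarithm, fold changes on this scale are too small for low genes such as psf-2. The fit was also run on simulated data, with noise drawn independently for each gene and library. The outcome of that run is not given here and lends no support to the calls. The text names all 33 members, iff-1 and, from the lists of other replication genes and S phase regulators, up to 4 genes per list and comparison with the smallest adjusted p. From these lists dhfr-1, top-2, pola-1, pold-1 and pold-2 were added after their values were seen. Symbols of 27 of 34 other replication genes were matched, and the rest were not analysed here. Alternatives were a pseudocount of 0.1, no filter, 3 scalings, only the groups compared, no variance trend, a replicate block and leaving out each library. Leaving out EV 15°C replicate 3 and EV 20°C replicate 2 together, or these with iff-1 RNAi replicate 1, was chosen after seeing the data.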

Additional observations from a re-analysis of the deposited data

How the results depend on the processing

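No replication gene called in any comparison changed sign in the 17 alternatives planned. Of the calls, 9 of 15 at 20°C, 8 of 17 under iff-1 RNAi against EV 15°C and 19 of 23 against EV 20°C were kept with every library left out in turn. Median ratio scaling gave 9 replication genes higher at 20°C, with 1172 of all tested genes higher and 1118 lower. Quantile normalization gave 4 higher and 16 lower under iff-1 RNAi against EV 20°C. Among all tested genes 22.8% were then higher and 25.2% lower. Scaling without the 10 highest genes gave 3 higher and 9 lower under iff-1 RNAi against EV 15°C. The shares of all tested genes were 11.5% and 14.3%. Over the settings that leave out libraries, 1 to 3 at a time, all tested genes at 20°C numbered 680 to 1729 higher and 397 to 789 lower, and under iff-1 RNAi against EV 15°C 416 to 1574 higher and 511 to 1502 lower. Replication genes numbered 6 to 15 higher at 20°C, and under iff-1 RNAi against EV 15°C 2 to 7 higher and 2 to 12 lower. Leaving out libraries changes both their number and which ones remain, and the cause of the differing counts was not tested.

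Values that changed sign were all uncalled and near 0. At 20°C these were pole-1 (-0.025 and -0.024 with median ratio scaling and quantile normalization), rpa-1 (-0.011 with median ratio scaling), rnr-1 (-0.038 and -0.016), iff-1 (0.056 with quantile normalization) and orc-3 (0.025 without the 10 highest genes). Against EV 20°C they were orc-5 (0.021 and 0.023), crn-1 (0.013 and 0.019), cdc-6 (-0.0099) and rfc-3 (-0.019), the last 2 without the 10 highest genes. With libraries left out, the log2 fold change at 20°C ranged from -0.021 to 0.047 for rnr-1, -0.025 to 0.025 for orc-3 and -0.11 to 0.025 for rfc-1, under iff-1 RNAi against EV 15°C from -0.038 to 0.095 for orc-4, -0.035 to 0.10 for pri-2 and -0.018 to 0.12 for orc-1, and against EV 20°C from -0.020 to 0.052 for rfc-3 and -0.12 to 0.018 for rfc-1.

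Same-numbered libraries of different groups had correlations of -0.19 to 0.08 in their deviations from group means, and differently numbered ones -0.14 to 0.21. The labels do not say what same-numbered libraries share, so these values cannot exclude a pairing. With the replicate block 15 replication genes were higher and 0 lower at 20°C, 5 and 9 under iff-1 RNAi against EV 15°C, and 2 and 20 against EV 20°C. The shares of all tested genes were 17.3% and 7.92%, 14.6% and 13.7%, and 20.1% and 27.2%. The estimated counting error was largest for psf-2, at 7.79%. For some other genes it was above the coefficient of variation of a group, as for psf-3 (1.78% against 0.467% in EV 15°C) and cdc-6 (1.14% against 0.407% in EV 20°C).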

Other observations

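Regulators of S phase, a list of 18 genes made with earlier results of these data known, includes the kinases, cyclins and inhibitors that control the machinery. At 20°C 6 of 18 were higher and 0 lower, where 19.3% of all tested genes were higher and 8.69% lower. At an unadjusted p under 0.05 in limma the counts were 7 and 0, with no share of all tested genes taken. Under iff-1 RNAi 3 were higher and 2 lower than in EV 15°C, against 16.0% and 15.0% of all tested genes. cdk-1, the mitotic cyclin-dependent kinase, was at 405, 405 and 399.7 FPKM in EV 15°C, at 452, 449 and 451 FPKM in EV 20°C and at 261, 252 and 249.7 FPKM under iff-1 RNAi, with log2 fold changes of 0.16 (SE 0.024, adjusted p = 0.00267) and -0.66 (SE 0.024, adjusted p = 9.28e-06). Its partner cyb-1, a B-type cyclin, rose at 20°C from 384 ± 9.30 to 445 ± 6.83 FPKM (adjusted p = 0.00272) and was at 363 ± 12.4 FPKM under iff-1 RNAi, not called (adjusted p = 0.0922).

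Cyclin E, cye-1, which drives entry into S phase, rose under iff-1 RNAi from 158 ± 6.37 to 184 ± 3.47 FPKM (log2 fold change 0.22, SE 0.033, adjusted p = 0.00216). cdt-2, the substrate receptor of the ubiquitin ligase that removes CDT-1, was at 81.8 ± 0.563, 89.8 ± 2.42 and 89.9 ± 2.27 FPKM and was higher at 20°C and under iff-1 RNAi (adjusted p = 0.0136 and 0.0112), the first call being lost with median ratio scaling and quantile normalization (adjusted p = 0.0763 and 0.0649). cdc-25.1, a phosphatase that activates cyclin-dependent kinases in the germ line, rose at 20°C from 173 ± 3.98 to 195 ± 9.93 FPKM (adjusted p = 0.0153), a call lost without EV 15°C replicate 1 or 2 or EV 20°C replicate 3 (adjusted p 0.0550 to 0.0584). efl-1, an E2F-family transcription factor, was at 104 ± 1.03 FPKM in EV 15°C and 93.8 ± 4.77 FPKM under iff-1 RNAi (adjusted p = 0.0367), a call lost without any 1 of the EV 15°C libraries, EV 20°C replicate 3 or iff-1 RNAi replicate 1 or 2 (adjusted p 0.0564 to 0.120). chk-1, a checkpoint kinase, was lower under iff-1 RNAi than in EV 20°C (83.4 ± 2.62 against 94.5 ± 1.42 FPKM, adjusted p = 0.00262).

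None of the 33 replication genes lies on the X chromosome, which holds 10.7% of the tested genes, and 10 of them lie on chromosome III and 9 on chromosome I. Apart from orc-1 and orc-4, no pair of the 33 genes lies within 1000 nt of each other.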
